A study of Mus musculus with 2 samples.

Results

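The transcripts of 10 genes of the activator protein-1 (AP-1) family were compared between 2 cultures of wild-type (WT) mouse bone marrow cells. The genes were taken by name and not ranked by their values, though earlier results of these data were known. They were Fos, Fosb, Fosl1 and Fosl2 of the Fos proteins, Jun, Junb and Jund of the Jun proteins, and Batf3, Atf3 and Jdp2 of the related ATF and JDP proteins. Of the 10, 8 are among the 14870 genes that had at least 1 assembled locus. One culture received macrophage colony-stimulating factor alone (M), and the other M-CSF together with receptor activator of NF-κB ligand (MR), the cytokine that drives osteoclast differentiation. By the labels, M-CSF alone was given for 2 days, and RANKL was then present for 2 days in MR, whereas the culture method of the study gives a longer time with RANKL and does not name the day on which RNA for sequencing was taken. Each culture gave 1 library of total RNA, so no difference below has a replicate check and no test was possible. RNA was taken from the culture in bulk, and in such RNA fewer cells of one type cannot be told apart from less RNA per cell.

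AP-1 proteins are basic leucine zipper (bZIP) factors that bind DNA as pairs. A Fos protein pairs with a Jun protein, Jun proteins also pair with each other, and ATF, BATF and JDP proteins join or compete with these pairs. In osteoclast precursors, RANKL signals through MAP kinases to AP-1, and the Fos-containing pair acts with Nfatc1 at the promoters of osteoclast genes. Mice without Fos form no osteoclasts.

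The stretch just before the start site is shown for the 5 genes whose RefSeq start lay within 100 bases of the 5′ end of an assembled locus in M, MR or both, because there the measured transcripts began next to the window. Each sequence is the last 120 bases before the RefSeq start, on the gene's own strand, from the GRCm38.p6 table. They lie at chr12:85473770-85473889 (Fos, plus strand), chr8:84978749-84978868 (Junb, minus strand), chr4:95052223-95052342 (Jun, minus strand), chr1:191183334-191183453 (Atf3, minus strand) and chr1:191098294-191098413 (Batf3, plus strand). Capitals mark TGACGT, the core of the cyclic AMP response element, on either strand (it also lies within TGACGTCA), and the AP-1-like TGACATCA of Jun.
Fos: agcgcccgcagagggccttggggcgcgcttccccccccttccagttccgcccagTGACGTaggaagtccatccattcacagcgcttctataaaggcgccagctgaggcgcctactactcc
Junb: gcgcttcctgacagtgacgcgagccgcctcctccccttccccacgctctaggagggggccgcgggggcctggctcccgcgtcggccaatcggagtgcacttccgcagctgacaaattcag
Jun: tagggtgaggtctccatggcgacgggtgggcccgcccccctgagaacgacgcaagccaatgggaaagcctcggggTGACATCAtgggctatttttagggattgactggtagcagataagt
Atf3: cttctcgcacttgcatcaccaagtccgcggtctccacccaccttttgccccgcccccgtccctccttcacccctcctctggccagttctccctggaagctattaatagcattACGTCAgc
Batf3: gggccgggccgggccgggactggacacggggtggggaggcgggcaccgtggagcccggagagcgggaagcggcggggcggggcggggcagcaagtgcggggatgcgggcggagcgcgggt

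In the 250 bases before their starts, 9 of the 10 genes had a RefSeq entry, with 11 windows in all. TGACGT was found 66 bases before the start of Fos, 8 bases before that of Atf3 on the other strand and 114 bases before 1 start of Jdp2, and 6.47% of 32851 mouse promoter windows of that length held it. TGACATCA was found 45 bases before the start of Jun, against 2.93% of all windows. The full AP-1 site TGACTCA, the full element TGACGTCA and the CArG box of serum response factor, held by 4.46%, 1.55% and 1.47% of all windows, were found in 0 of the 11 windows. Both strands were searched, but not the bases further than 250 before a start, so the 0 holds for these windows only. Genes that were higher in MR (Fos, Jdp2) and one that was lower (Atf3) carried the TGACGT core, and a match describes letters in a window only. The locus of Junb began next to the RefSeq start in MR alone and that of Batf3 in M alone, whereas those of Fos, Jun and Atf3 did so in both. The loci of Fosl2, Jund and Jdp2 began more than 100 bases from each of their RefSeq starts in both libraries. Their windows, with the TGACGT match of Jdp2, therefore did not lie next to the 5′ ends of the measured transcripts.

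Levels are given in TPM, which is scaled for length, so that genes can be compared within a library. The TPM of the assembled loci alone sums to 1000000 in each library, and rows with gene names are listed on top of that sum. Of the 10 genes, 8 had a locus in both libraries, and Fosb and Fosl1 had none in either. With 1 added to each TPM, a log2 ratio of MR to M above 1 or below -1 is called here past 2-fold. Of the 8 genes, 4 were past 2-fold higher in MR (Fosl2, Jdp2, Fos and Junb) and 2 lower (Atf3 and Batf3), while Jun and Jund lay between. Of all 13449 genes that had an own locus and reached a TPM of 1 in either library, 21.3% were past 2-fold higher and 13.2% lower. The median log2 ratio of the 8 genes was 0.76, with a range of -3.16 to 5.70, against a median of 0.21 and a central 90% from -1.80 to 2.34 over all genes. With Fosb and Fosl1 entered at 0 it was 0.03 over 10 genes. The members thus spread widely to both sides.

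**Figure D1:**
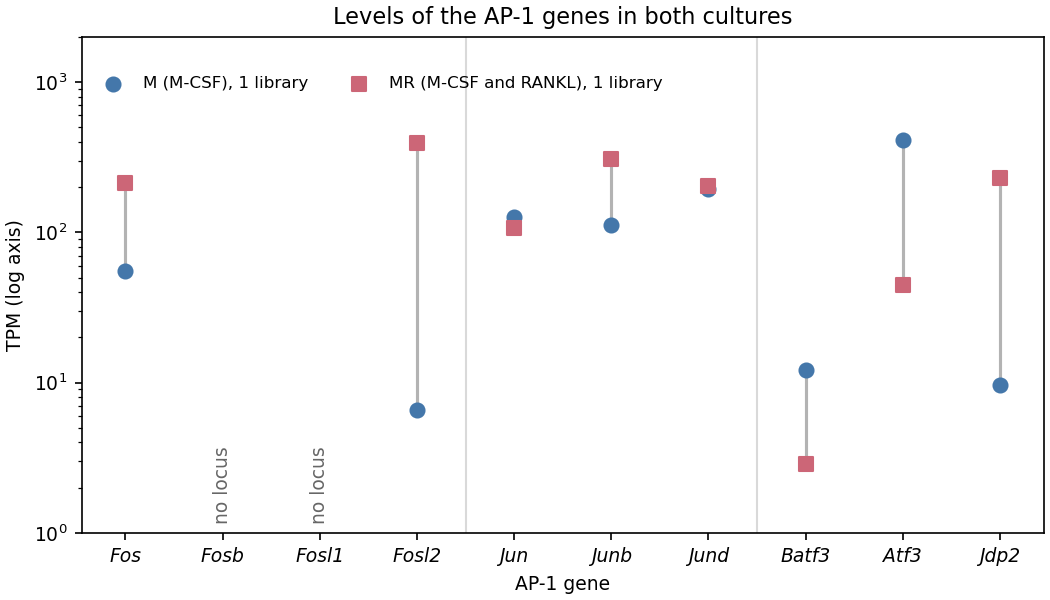
TPM on a log axis of each AP-1 gene in M (circles) and MR (squares), with 1 library each and no error bars. Fosl2 went from 6.54 in M to 391 in MR and Atf3 from 408 to 44.8, whereas Jun and Jund nearly overlap between the libraries.

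Among the Fos proteins, Fosl2 showed the widest difference of all members. Fosl2 encodes Fra-2, a Fos protein without the strong transactivation domain of Fos, and lies on the plus strand of chromosome 5 from 32135801 to 32157842 in GRCm38. Its TPM was 6.54 in M and 391 in MR, which is 59.8 times higher. Read pairs estimated from FPKM, aligned bases and the shortest coding transcript were 239 (M) and 11305 (MR), and the 95% Wilson interval of the ratio was 52.7 to 68.1. All such intervals cover counting error only and leave out differences between cultures. The log2 ratio of 5.70 was higher than that of 99.7% of all genes. By TPM, Fosl2 was the lowest of the 8 genes with a locus in M and the highest in MR. In coverage per aligned Gb, a read depth set against library size, it was also first in MR but came before Jdp2 in M. For log2 ratios, 1 was added to this column as to TPM, although its values run lower (3.02 against 6.54 for Fosl2 in M). The added 1 thus weighs more there, and log2 ratios of genes at low levels tend to come out smaller in size. In that column 15.7% of all genes were past 2-fold higher and 10.1% lower.

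Fos itself, on the plus strand of chromosome 12 from 85473890 to 85477273, stood at 54.96 TPM in M and at 211 TPM in MR. The ratio was 3.85 (3.52 to 4.20, about 649 and 1970 read pairs) and the log2 ratio 1.92. The size of this difference depended on the column read. The coverage listed for the Fos locus, a mean read depth per base, was 63.3 in M and 83.7 in MR, which per aligned Gb gives 17.4 and 28.1 and a log2 ratio of 0.66, under the 2-fold line. Coverage divided by FPKM was 2.49 in M and 0.89 in MR for Fos, while the most frequent value was 3.63 and 2.98 over all loci. Jdp2 was also far below it, with 0.63 in M and 1.11 in MR, and Fosl2 was at 2.60 in MR. What sets the difference between these columns was not tested.

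The Fos locus also differed in extent. In M it began 11 bases inside the annotated start and stopped 1005 bases short of the annotated 3′ end, covering 56.8% of the exon bases. In MR it ran from 3 bases inside the start to the annotated end and covered 99.9%. A table row with the gene name Gm40477, placed at positions of another genome build and otherwise not used, covers 1390 exon bases of Fos. It is listed on the minus strand, opposite to Fos, with 23.3 TPM in M and 70.8 TPM in MR. With that row added despite its strand, the sum was 78.3 in M and 282 in MR, which is 3.60 times higher. Fos was higher in MR with or without the row, and whether the row holds reads of Fos was not tested.

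No locus was assembled for Fosb (chromosome 7, 19302696 to 19310051) or for Fosl1 (chromosome 19, 5447547 to 5455946), which encodes Fra-1. No row with a gene name and a TPM above 0 covered their exons either. Over the listed loci, the lowest TPM was 0 in both libraries and the 5th percentile lay at 0.148 TPM in M and 0.239 TPM in MR. These values do not set a level below which a gene is missed. Transcripts of Fosb and Fosl1 were thus not detected at this depth, and no difference can be given. Within the Fos proteins, Fos accounted for 89.4% of the summed TPM in M and Fosl2 for 10.6%. In MR, Fosl2 accounted for 64.9% and Fos for 35.1%. In coverage per aligned Gb the share of Fos was 85.2% in M and 15.6% in MR. Together they reached 61.5 TPM in M and 603 TPM in MR.

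The Jun proteins, which supply the partner of the Fos proteins, differed less. Junb (chromosome 8, minus strand, 84974484 to 84978718) stood at 111 TPM in M and at 309 TPM in MR. The ratio was 2.78 (2.59 to 2.98, about 1127 and 2472 read pairs) and the log2 ratio 1.47. Coverage per aligned Gb gave 1.40, close to the TPM. The locus of M reached 2336 bases beyond the annotated start, whereas that of MR began 5 bases inside it. A row with the gene name Mri1, again at positions of another build, covers 1817 exon bases of Junb and is on the same strand. It had 48.2 TPM in M and 112 TPM in MR. With it the ratio was 2.64.

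Jun and Jund are genes of 1 exon, and their loci were listed without a strand in both libraries. Jun, at 95049034 to 95052222 on chromosome 4, stood at 125 TPM in M and at 107 TPM in MR, a ratio of 0.85 (0.80 to 0.91). Its log2 ratio was -0.23, so that Jun was slightly lower in MR and stayed well inside 2-fold. The Jun locus covered 98.3% of the exon bases in M and 71.0% in MR, where it stopped 908 bases short of the annotated 3′ end. Jund, at 70698949 to 70700616 on chromosome 8, stood at 194 TPM in M and at 202 TPM in MR, a ratio of 1.04 (0.97 to 1.12). Its log2 ratio of 0.06 became -0.13 after median-of-ratios scaling, -0.08 without mitochondrial and the 20 most abundant genes and -0.004 in coverage per aligned Gb, so that no direction can be given for Jund. The Jun proteins together reached 431 TPM in M and 618 TPM in MR. Jund held 45.1% of this sum in M and Junb held 50.01% in MR.

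**Figure D2:**
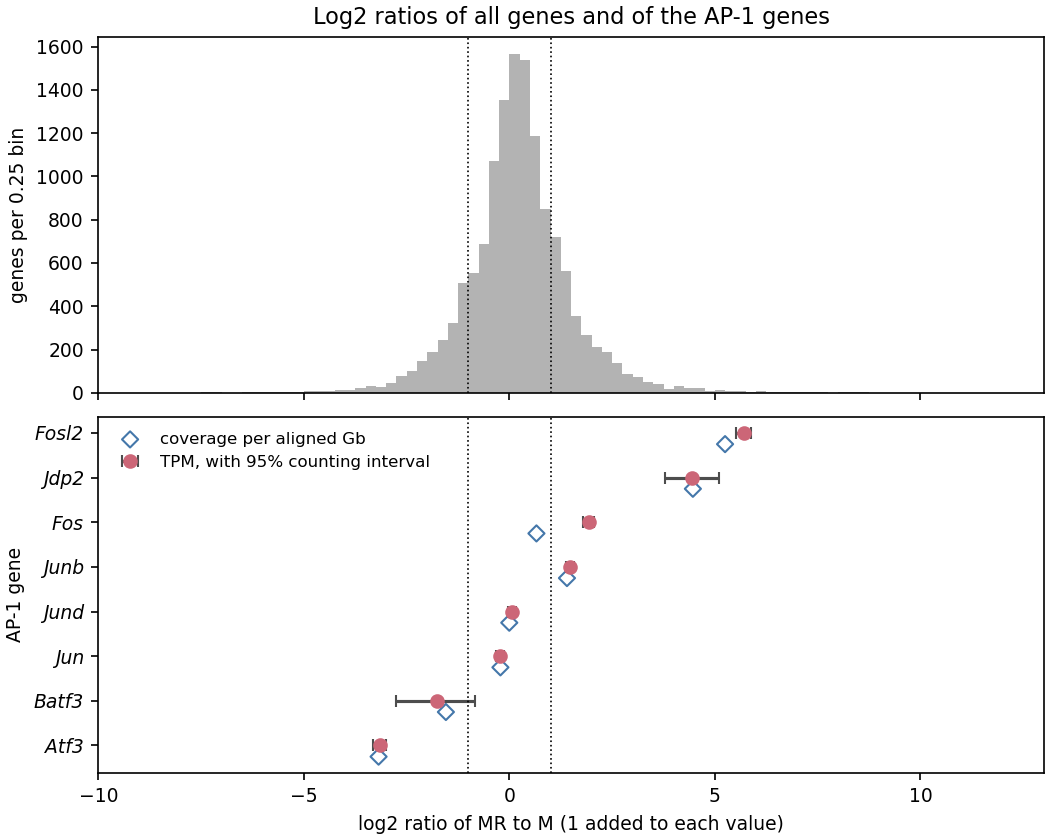
Top, number of genes per bin of log2 ratio of MR to M for 13449 genes. Bottom, log2 ratios of the 8 AP-1 genes in TPM (filled circles, bars are 95% counting intervals) and in coverage per aligned Gb (open diamonds), with dotted lines at -1 and 1. Fos is the gene whose value crosses the dotted line between the columns, from 1.92 to 0.66.

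The ATF and JDP proteins went in opposite directions. Jdp2, Jun dimerization protein 2, binds Jun proteins, and mice without it have impaired osteoclast formation. The gene lies on the plus strand of chromosome 12 from 85599027 to 85639878. Its TPM was 9.68 in M and 231 in MR, which is 23.9 times higher. The shortest coding transcript has 349 nt, which gives about 19 and 356 read pairs and a wide interval of 15.0 to 37.5. With 1 added, the log2 ratio was 4.44 in TPM and 4.46 in coverage per aligned Gb. The coverage was only 0.781 in M, against 38.3 in MR, so that the added 1 was larger than the value of M. The closeness of these log2 ratios therefore does not show that the columns give the same size of difference. The Jdp2 locus of MR began 1810 bases before the annotated start and ended 3885 bases after the annotated end, and that of M 127 bases before and 98 bases after, with all annotated exon bases inside both.

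Atf3, a factor that is induced by stress and that limits inflammatory genes in macrophages, was the most abundant member in M and was lower in MR. The gene is found on chromosome 1, minus strand, 191170296 to 191218039. Its TPM was 408 in M and 44.8 in MR, so that M was 9.12 times higher (8.21 to 10.1, about 4357 and 377 read pairs). The log2 ratio was -3.16 in TPM and -3.18 in coverage per aligned Gb, and only 0.996% of all genes had a lower value. The loci of M and MR began 36 and 75 bases inside the start of the nearer coding transcript and ended 2 and 7 bases from its 3′ end, so that both spanned nearly the same stretch.

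Batf3, which is needed for the cross-presenting class of dendritic cells, was near the middle of all genes in M, higher than 48.9% of them, and low in MR, higher than 17.0%. The gene lies on the plus strand of chromosome 1 from 191097847 to 191108945. Its TPM was 12.2 in M, as the sum of 2 loci, and 2.86 in MR. With about 55 and 10 read pairs the ratio of M to MR was 4.26 with an interval of 2.24 to 8.41. The interval of the log2 ratio, -2.75 to -0.84 around -1.77, crossed the 2-fold line. In M, 1 of the loci began 65 bases inside the coding start, whereas the locus of MR began 2399 bases after it. Dendritic cell markers were low in both libraries, and their 6 genes summed to 13.7 TPM in M and 11.95 TPM in MR. They did not move one way. Of the 6, Zbtb46 was higher in MR (0.765 and 2.75), Flt3 (5.19 and 5.53) and Siglech (1.63 and 1.58) were nearly level, Ccr7 (2.61) and Xcr1 (0.595) were measured in M alone, and Clec9a was at 2.91 and 2.09 with a log2 ratio of -0.34 that was 0.52 in coverage per aligned Gb. The part of these cells in the Batf3 values was not tested.

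The order of the levels by TPM changed between the libraries. In M, Atf3 came first, followed by Jund, then Jun and Junb, then Fos, and last Batf3, Jdp2 and Fosl2. Jun and Junb were within 1.5 times of each other in M, as were Batf3 and Jdp2, and Jdp2 and Fosl2. In MR, Fosl2, Junb, Jdp2, Fos and Jund each lay within 1.5 times of the next, from 391 down to 202. They were followed by Jun, Atf3 and Batf3, each more than 1.5 times below the one before. The order in MR depended on the column for Jdp2 and Fos. In coverage per aligned Gb it was Fosl2 (151.8), Junb (137.4), Jund (89.4), Jun (47.6), Jdp2 (38.3), Fos (28.1), Atf3 (19.9) and Batf3 (1.27), with Jdp2 and Fos below Jun. All members together reached 922 TPM in M and 1499.9 TPM in MR. Atf3 held 44.3% of it in M and 2.99% in MR, Fosl2 0.71% and 26.1%, and Jdp2 1.05% and 15.4%. The Fos proteins together held 6.67% in M and 40.2% in MR, and the Jun proteins 46.7% and 41.2%. In coverage per aligned Gb these shares were 4.96% and 35.0% for the Fos proteins and 47.7% and 53.4% for the Jun proteins, and that of Jdp2 was 0.19% and 7.46%.

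**Figure D3:**
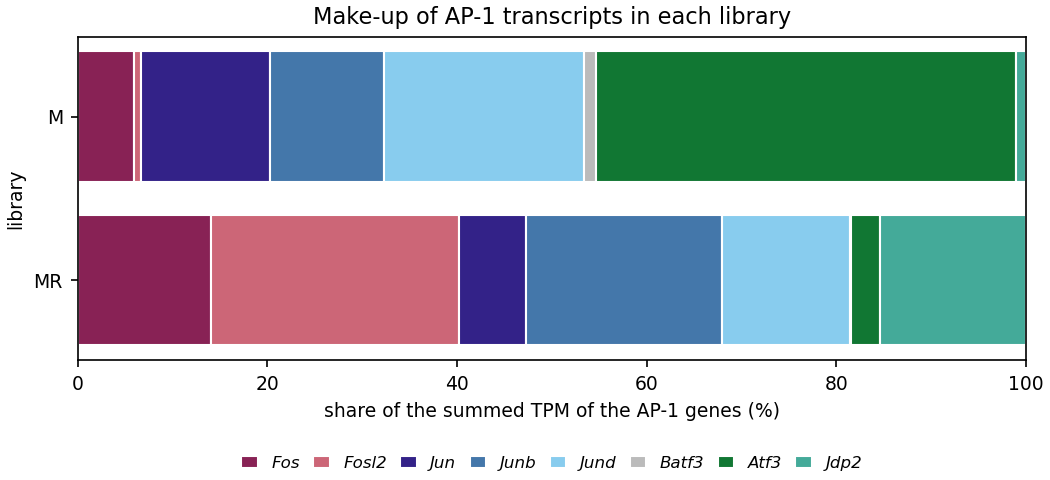
Share of the summed TPM of the AP-1 genes held by each gene in M and in MR (1 library each), in percent. The Jun proteins hold 46.7% and 41.2%, whereas the largest single share is that of Atf3 in M (44.3%) and of Fosl2 in MR (26.1%).

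The mRNAs of Fos and Jun are known to be short-lived, and AUUUA in the 3′ untranslated region is a common mark of such mRNAs. ATTTA was counted in the longest annotated 3′ untranslated region of each gene. Fos had 4.91 per kb, Junb 4.12, Jun 3.24 and Atf3 2.53, against a median of 1.49 over 18077 genes with a region of at least 200 nt. Fosl2, with 8 copies in 4653 nt, had 1.72 per kb. Jdp2 and Batf3 had 0, as did 26.6% of those genes. These counts describe the annotated sequences, and mRNA decay was not measured.

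Other bZIP proteins can pair with AP-1 proteins or share their sites. Of 15 such genes, 2 were past 2-fold higher in MR and 3 lower, and their median log2 ratio was 0.09. Over all genes 21.3% were higher and 13.2% lower, so that these counts by TPM are near the background. After median-of-ratios scaling, 2 were higher and 5 lower (33.3%), against 15.98% of all genes lower. Bach1 (-1.07) and Atf5 (-1.15) were then past the line as well. In coverage per aligned Gb, 1 was higher and 2 lower. The nearness to the background thus depended on the scaling. Among the lower genes were Maf (314 TPM in M and 48.8 TPM in MR, log2 ratio of -2.66) and Batf (12.3 and 5.55, -1.02), the latter at -0.95 in coverage per aligned Gb. Maf encodes a factor of macrophages. The higher genes, Maff and Bach2, had a TPM of no more than 7.40 in MR, and Bach2 was at 0.46 in coverage per aligned Gb. Atf4, Atf2 and Creb1, which were not past 2-fold, had log2 ratios of 0.25, 0.46 and 0.06, and the sign of Creb1 changed with median-of-ratios scaling (-0.11).

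Upstream of AP-1, of 23 genes of the MAP kinase cascades, 2 were past 2-fold higher in MR and 3 lower, against 21.3% and 13.2% of all genes. Map2k3, a kinase that activates p38, was higher in MR (50.6 and 176, log2 ratio of 1.78), as was Mapk13, with a TPM of only 1.76 in MR and no locus in M. Map3k8 (22.4 and 7.57, -1.45), Map3k1 (29.0 and 10.7, -1.36) and Mapk9, which encodes the kinase JNK2 (34.0 and 15.5, -1.09), were lower. In coverage per aligned Gb, Mapk9 (-0.49) and Mapk13 (0.83) were inside 2-fold and Map3k3 (-1.05) was past it, which left 1 higher and 3 lower. After median-of-ratios scaling, Map3k3 (-1.06) was past it as well, with 2 higher and 4 lower.

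Of 9 phosphatases that switch MAP kinases off, Dusp4 was higher in MR, with 5.94 TPM in M and 136 TPM in MR and a log2 ratio of 4.30. Dusp1 was lower, with 87.1 and 17.6 and a log2 ratio of -2.25. Dusp5, with 1.95 and 5.44, was at 1.13, at 0.85 in coverage per aligned Gb and at 0.98 after median-of-ratios scaling. The remaining 6 lay inside 2-fold. By TPM, 2 of the 9 were thus higher and 1 lower, near the 21.3% and 13.2% of all genes. Of 10 genes for factors that act on the Fos and Jun promoters, such as Srf and the Elk proteins, Mef2c was past 2-fold by TPM, at -1.30 with 9.16 TPM in M. In coverage per aligned Gb, Elk1 (-1.25) and Mef2d (1.08) were past it as well, and after median-of-ratios scaling Elk1 (-1.05). All 6 genes of the ubiquitin pathways that degrade Jun and Fos proteins lay between -0.40 and 0.56.

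Fos, Junb, Jun and Atf3 belong to the immediate early genes, which cells switch on soon after a stimulus. Of 13 other genes of this kind, 10 could be compared. By TPM, 2 were past 2-fold higher in MR and 2 lower, against 21.3% and 13.2% of all genes. Myc was higher (3.92 and 40.1, log2 ratio of 3.06), as was Egr1 at a low level (2.99 and 7.97, 1.17, and 0.93 in coverage per aligned Gb). Klf6 (244 and 89.9, -1.43) and Ier3 (18.7 and 7.27, -1.25) were lower. Zfp36 was at -0.36 and Ier5 at -0.98, which median-of-ratios scaling moved past the line to -1.17. No locus was found for Egr3 and Ier2. The median of the 10 genes was -0.22.

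Genes that AP-1 is known to act on also split. All 9 of the osteoclast effector genes and Nfatc1 were past 2-fold higher in MR, and their median log2 ratio was 7.52. Nfatc1, the main factor of osteoclast differentiation, had a TPM of 25.5 and 325, Itgb3 had 5.56 and 158, Atp6v0d2 had 4.25 and 965, and Mmp9 had 11.4 and 5159. This list was drawn up with the response of osteoclast genes known and is not independent evidence. Of 12 AP-1 targets known from other cells, 2 were past 2-fold higher in MR and 6 lower, against 21.3% and 13.2% of all genes, and their median was -1.03. In coverage per aligned Gb, Vegfa (0.68) and Il1b (-0.90) lost the call, which left 1 higher and 5 lower. Il1b was low in TPM (3.61 in M and 0.967 in MR), where the added 1 weighs most. Of all genes, 15.7% were past 2-fold higher and 10.1% lower in that column. Ccnd1, which encodes cyclin D1, was at 142 TPM in M and 14.9 TPM in MR (-3.17), Hmox1, the inducible heme oxygenase, 565 and 142 (-1.98), and the collagenase gene Mmp13 17.9 and 2.83 (-2.30). Fgfr1 was higher, with 4.59 and 55.5 (3.34). Of 7 genes of the interferon-β feedback that Fos is known to start in precursors, Ifnb1 had no locus in either library, Irf9 lay inside the locus of another gene, and Stat2 (339 and 117, -1.52) and Irf8 (155 and 25.2, -2.57) were lower. Of 9 genes linked with Batf3 in dendritic cells, 8 could be compared. Irf8, Tlr3 (30.7 and 7.54, -1.89) and Id2 (138 and 43.2, -1.65) were lower, while Itgae and Zbtb46 were higher with a TPM of at most 8.59. In coverage per aligned Gb, Zbtb46 (0.72) lost the call and Cadm1, at -0.25 in TPM, was at 2.77. That again gave 2 higher and 3 lower. By TPM, 21.3% of all genes were past 2-fold higher and 13.2% lower.

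**Figure D4:**
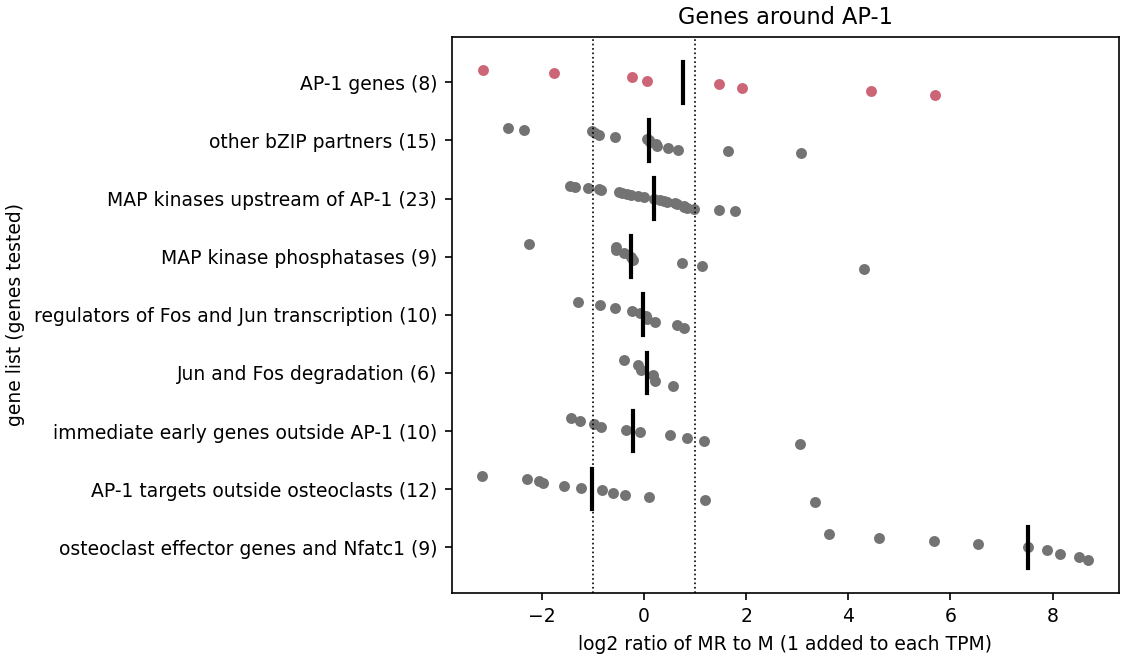
Log2 ratios of MR to M of the 8 AP-1 genes (red) and of the gene lists around AP-1 (grey), 1 point a gene, with the median of each list as a bar and dotted lines at -1 and 1. The AP-1 genes span -3.16 to 5.70, the genes of degradation stay within -0.40 to 0.56, and the osteoclast effector genes and Nfatc1 lie at 3.62 and above.

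The label of the cultures was checked against markers. All 9 osteoclast markers were past 2-fold higher in MR and summed to 126 TPM in M and 24993 TPM in MR. Apart from Ocstamp, they are also in the list of osteoclast effector genes and Nfatc1, so both results rest on nearly the same genes. The 6 macrophage markers summed to 5306 and 3297, and 5 of them were lower in MR. Fcgr1 (1158 and 60.5, -4.24), Mertk (108 and 15.8, -2.70) and Adgre1 (681 and 148, -2.20) were past 2-fold, Cd14 was at -0.87 and Cd68 at -0.26, and Csf1r was at 697 and 872 (0.32). Neutrophil markers were present in both, with 1362 and 950 over 7 genes and log2 ratios from -0.84 to 0.26, and those of erythroid, lymphoid, stromal, mast cell and dendritic lists summed to between 3.35 and 22.3 in M and between 2.11 and 38.7 in MR. Their part in the AP-1 values was not tested. The aligned bases were 3.63 Gb in M and 2.98 Gb in MR.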

How the data were processed

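RNA from 1 culture per condition was sequenced as paired reads. Adaptors were removed with Trim Galore, reads were aligned to mm10 with HISAT2, and the authors deposited StringTie tables with coverage (a signal of mean read depth per base), FPKM and TPM per locus. Tool versions are not given in the sources used here. The reference annotation was GENCODE vM27, whose positions are on GRCm39, so rows with gene names were not used for values. Each assembled locus was given to the GENCODE vM21 gene (GRCm38) whose exons it overlapped most, with a minimum of 50 bases, on its strand or on either strand for a locus without one, and TPM was summed per gene. A protein-coding gene with 50% or more of its exon bases inside a locus given to another gene was given no value. A pseudocount of 1 was added to TPM and also to coverage per aligned Gb, whose values run lower. Genes that reached a TPM of 1 in either library were compared. Aligned bases were read from coverage divided by FPKM, at its most frequent value. Read pairs took 300 bases per pair. Python 3.11.15 was used with matplotlib 3.10.9, scipy 1.17.1, pandas 2.3.3 and numpy 2.4.6, and the steps were tested on simulated data. The members and lists were chosen with earlier results of these data known. Genes named from a list were past 2-fold with a TPM of at least 10, at most 4 per list and direction, and others were chosen after their values were seen, as were the promoters and motifs shown. Of the alternatives, 11 were fixed in advance and 1 was added later, as were the order and shares in coverage. The values of 1 list gene are not reported here.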

Additional observations from a re-analysis of the deposited data

Results flagged for a closer look

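Both values stood out because they lie in table rows that the comparisons do not use and were above the level of M in MR, without replicates. The row Gm40477, whose listed positions cover part of Fos on the opposite strand, had a TPM of 70.8 in MR and 23.3 in M. The row Mri1, whose listed positions cover most of Junb on the same strand, had 112 in MR and 48.2 in M. Which reads these rows hold was not tested.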

How the results depend on the processing

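Of 60 counts under 11 alternatives set in advance and 1 added after the data were seen, 55 stayed within 1.5 times of the reported count. The other 5 came from raising the log2 threshold to 2, which admits fewer genes by construction. The 6 members past 2-fold then became 3, with 2 higher (Fosl2 and Jdp2) and 1 lower (Atf3), and the list genes became 15 higher and 8 lower. The median of the 10 members, 0.03, is not stable. It was 0.76 with a TPM of at least 10 and 1.70 without loci that lack a strand, which leave out members by construction, and lay between 0 and 0.03 under the other 9 alternatives. Of 86 member ratios, 74 stayed within their counting interval, 12 moved and 0 reversed. Only Fos changed its side of the 2-fold line, at 0.66 with coverage per aligned Gb. Jund, inside the line, changed sign under 3 alternatives. Median-of-ratios scaling lowered the median of all genes from 0.21 to 0.03, and the share of higher genes among those past 2-fold from 61.6% to 53.1%. No replicate could be left out. No paired analysis was possible because each group has 1 library. Depth limits Batf3 and the undetected Fosb and Fosl1 most.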
